A study of Mus musculus with 12 samples.

Results

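Cytosolic ribosomal protein genes encode the protein parts of the small and the large subunit of the ribosome that translates nuclear mRNAs. They were taken by symbol as all genes named Rpl or Rps with a digit, together with Rpsa, Rplp0, Rplp1 and Rplp2, leaving out symbols with "-ps" and the Rps6k kinase genes. This gave 86 of the 31053 genes in the count tables, 34 named for the small and 52 for the large subunit, on 19 chromosomes of GRCm38. Of these, 77 are the standard ribosomal protein genes, called core genes here, and 9 are paralogs or other symbols that the naming rule admits (Rpl3l, Rpl7l1, Rpl10l, Rpl22l1, Rpl36al, Rpl39l, Rps27l, Rps27rt and Rps19bp1).

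Ribosomal proteins are made in matched amounts, and most of their mRNAs start with a cytosine and a run of pyrimidines, the TOP (terminal oligopyrimidine) element, through which growth signals acting by mTORC1 and Larp1 set their translation and stability. The mRNAs are short, abundant and long-lived. In microglia and in macrophages that enter the brain from blood precursors, their sum is a large part of all polyadenylated RNA, so a shift in it moves the share left for every other gene.

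The single-cell libraries came from C57BL/6J mice. Recipients were conditioned with busulfan and received lineage-negative hematopoietic stem and progenitor cells of male donors that carried a lentiviral vector for GFP, either into a vein (i.v.) or into the cerebral ventricles (i.c.v.), and all were later given total bone marrow without vector by vein. One female and one male recipient per route were used, 4 mice in all, aged 22 to 28 weeks per the labels, whereas the study's text places the sort about a year after dosing. CD45+ CD11b+ CX3CR1+ brain cells of each mouse were sorted into GFP+ cells, which derive from the graft, and GFP- cells, the resident microglia together with any graft-derived cells without vector, and each sort was 1 library. Another 4 libraries (neuron, astrocyte and microglia sorts and blood mononuclear cells, PBMCs) were treatment-naive, at 8 to 12 weeks per the labels and from a single animal per the study's text, with 1 library a group, so no test involves them.

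A barcode counted as a cell if 200 genes or more were detected and mitochondrial genes took no more than 10% of its UMIs (unique molecular identifiers, 1 per captured mRNA molecule), which left 30775 cells in all and 27439 in the treated libraries. The cells of a library held between 987965 and 16514669 UMIs together, more in each GFP+ library than in any GFP- one, and no pair of libraries shared more than 8 barcodes. Microglial markers were present in every treated library (11 of 11 with UMIs), whereas the naive neuron sort was made up of cells with oligodendrocyte markers (95.1% of its cells). Every library held UMIs of 83 to 85 of the 86 genes. How reads shared with the many near-identical processed copies of these genes were assigned is not given in the sources used here, so the level of a single gene, above all of low ones such as Rpl13a and Rps27rt, is less certain than its change between libraries.

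The sequence around the start site is shown for 8 of the 10 genes with the largest GFP+ to GFP- differences described below (Rpl36 and Rps29 had no entry) and for a pair without a call, because the TOP element lies there. RefSeq start sites of GRCm38.p6 were found for 66 of the 86 genes. Each line gives 10 bases before and 20 bases from the start onward on the transcript strand, with CTTTC, the pyrimidine core searched for, in capitals.
Rps28: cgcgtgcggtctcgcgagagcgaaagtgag
Rpl35: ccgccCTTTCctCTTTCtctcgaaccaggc
Rpl38: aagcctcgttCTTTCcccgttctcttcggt
Rps27: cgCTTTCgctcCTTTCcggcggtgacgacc
Rplp2: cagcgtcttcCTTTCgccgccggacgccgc
Rpl28: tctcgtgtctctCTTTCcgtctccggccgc
Rpl39: gctccgcctctagcgacttcttctaatcgc
Rpl41: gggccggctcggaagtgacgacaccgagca
Rpl39l: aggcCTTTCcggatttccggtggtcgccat
Rpl7l1: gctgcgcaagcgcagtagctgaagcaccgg

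These windows lie at chr17:33824543-33824572 for Rps28, chr2:39005112-39005141 for Rpl35, chr3:90213629-90213658 for Rps27, chrX:37085203-37085232 for Rpl39, chr10:128549149-128549178 for Rpl41 and chr17:46782637-46782666 for Rpl7l1 on the minus strand, and at chr11:114668570-114668599 for Rpl38, chr7:141447641-141447670 for Rplp2, chr7:4792955-4792984 for Rpl28 and chr16:10170218-10170247 for Rpl39l on the plus strand. The motif was in 5 of the 8 windows of called genes, in each of them at least once from the annotated start onward. In Rpl39l, the rarely expressed paralog of Rpl39, the match lay wholly in the bases before the start, outside the annotated mRNA. The first match in Rpl35 and that in Rps27 also lay before the start. Shares for the window count matches on both sides of the start. Over all ribosomal protein genes with a start site, 24.2% (16 of 66) held CTTTC in this window, against 4.43% of 27025 genes, and on either strand the shares were 27.3% and 8.58%. CCGGAAG, the core letters bound by ETS-family factors, was present on either strand of the whole 300 bases around the start in 39.4% of them and in 9.93% of all genes. The motifs can share at most a single end letter, and a match describes letters only.

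Ribosomal protein genes took a larger share of the UMIs in GFP+ than in GFP- libraries. Of all UMIs, 16.4% were theirs in the i.v. female GFP+ library, 15.8% in the i.v. male, 13.3% in the i.c.v. female and 11.8% in the i.c.v. male, a mean of 14.4% ± 2.15 (SD, n = 4). In the GFP- libraries of the same mice the shares were 8.85%, 7.89%, 10.8% and 9.32%, a mean of 9.22% ± 1.23 (SD, n = 4). The groups did not overlap, and the difference had the same direction in 4 of 4 mice, 5.15 percentage points on average with an SD of 3.04 between mice. The small-subunit genes made 6.53% of UMIs in GFP+ and 4.12% in GFP- libraries, and the large-subunit genes 7.83% and 5.10%. Exact 95% binomial (Clopper-Pearson) intervals of the treated libraries' shares reach at most 0.044 points to either side, and cover counting error only. The share is a sum over genes chosen with earlier results of these data known, so it is given without a test.

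**Figure D1:**
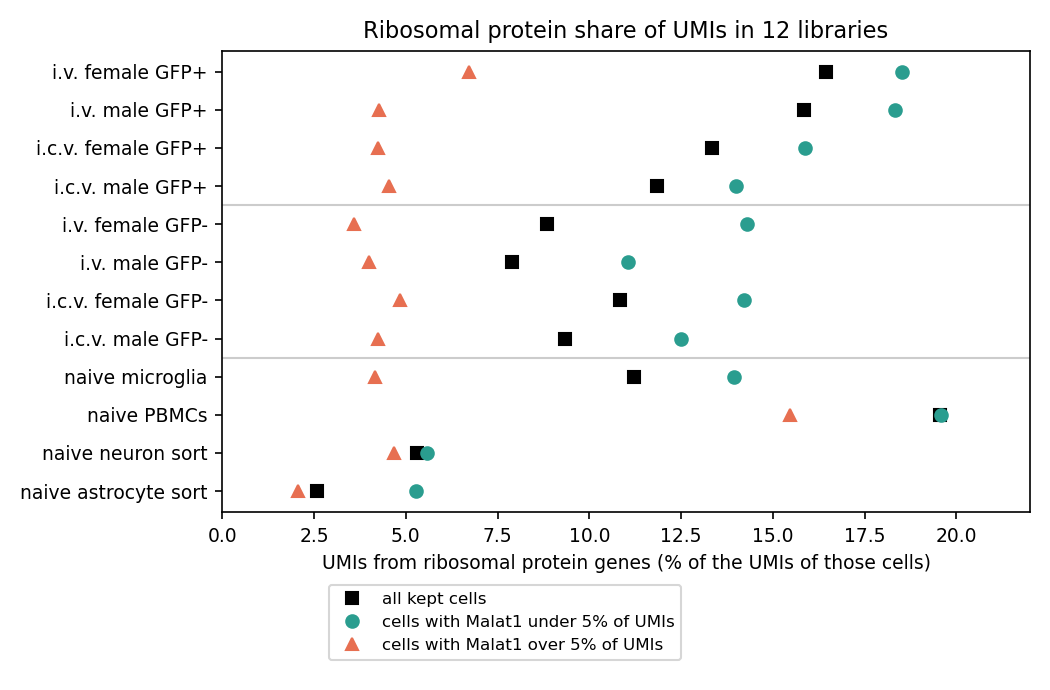
Ribosomal protein share of UMIs (x axis, percent of the UMIs of the cells named) in the 4 GFP+, 4 GFP- and 4 treatment-naive libraries (y axis), for all kept cells and for cells with Malat1 under or over 5% of their UMIs. GFP+ squares sit between 11.8% and 16.4% and GFP- squares between 7.89% and 10.8%, and triangles (Malat1 over 5%) lie below 7% in every library but the PBMCs.

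Gene by gene, the difference ran through the whole set. Of the 86 genes 84 had enough counts to be tested, and 82 were higher in GFP+ libraries and 0 lower at an adjusted p under 0.05 in the edgeR quasi-likelihood test (two-sided, Benjamini-Hochberg adjustment over 11755 genes), where 16.6% of all genes tested were called higher. All 77 core genes were among the 82. The median log2 fold change was 0.91, a 1.88-fold difference, against 0.01 over all genes tested, and core genes ranged from 0.71 (Rpl4) to 1.25 (Rps28). In plain CPM, the UMIs of a gene scaled to the same total in each library, 71 of the 84 tested did not overlap between the 4 GFP+ and the 4 GFP- libraries, which 6.28% of all genes tested did in that direction.

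The genes with the largest fold changes encode small proteins. Rps28, a protein at the mRNA exit side of the small subunit, stood at 1255, 1108, 926 and 676 CPM in the i.v. female, i.v. male, i.c.v. female and i.c.v. male GFP+ libraries and at 432, 402, 662 and 533 CPM in the GFP- libraries of the same mice. Both i.v. GFP+ libraries lay far above their GFP- partners, while the i.c.v. male GFP+ value was only just above the highest GFP- value, and the log2 fold change was 1.25 ± 0.26 (SE, adjusted p = 0.0077, edgeR). Rpl38, a large-subunit protein known for its role in skeletal patterning, rose by 1.16 ± 0.24 (adjusted p = 0.0078, edgeR), and Rps29, a zinc-binding small-subunit protein, by 1.10 ± 0.19 (adjusted p = 0.0041, edgeR). Rps29 was also among the most abundant of the set, at 3256 to 5052 CPM in GFP+ and 1889 to 2554 CPM in GFP- libraries. The others of the 10 largest changes were Rpl35 (1.17), Rps27 (1.13), Rplp2 (1.11), Rpl36 (1.10), Rpl39 (1.08), Rpl28 (1.08) and Rpl41 (1.06), the last of which encodes the shortest ribosomal protein and overlapped between the sorts in CPM.

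**Figure D2:**
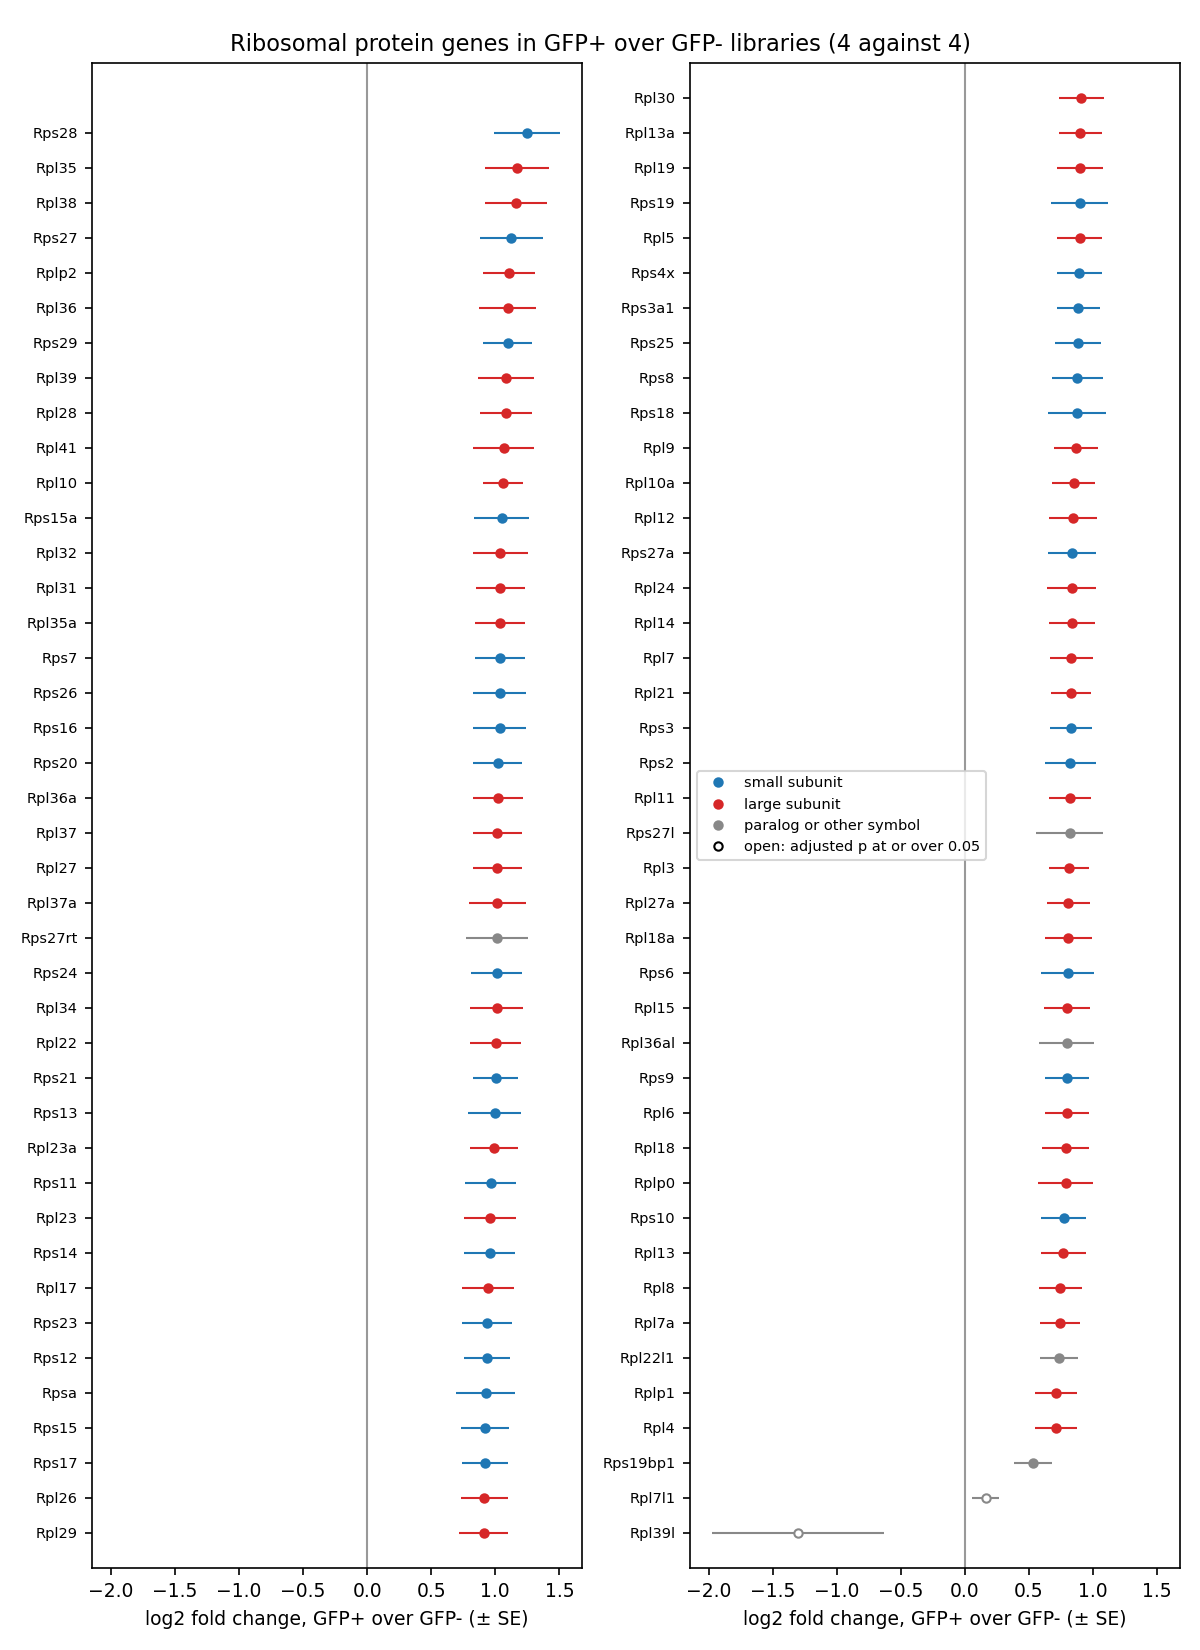
Log2 fold change of GFP+ over GFP- libraries (x axis, bars ± SE) for 83 of the 84 ribosomal protein genes tested (y axis, ranked), 4 libraries a sort. Core genes lie between 0.71 and 1.25 for both subunits, and only Rpl7l1 and Rpl39l (open points) were not called.

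Genes with other known roles fell inside the same range. The stalk proteins, which recruit elongation factors to the large subunit, had log2 fold changes of 1.11 (Rplp2), 0.79 ± 0.21 (Rplp0, adjusted p = 0.0214, edgeR) and 0.71 ± 0.16 (Rplp1, adjusted p = 0.0115, edgeR). Rplp0, often used as a reference gene in qPCR, stood at 1265 to 2073 CPM in GFP+ and 1058 to 1320 CPM in GFP- libraries, which overlapped. Rpl5 and Rpl11, which bind Mdm2 when ribosome assembly fails, rose by 0.89 and 0.82, and Rps19, the gene most often mutated in Diamond-Blackfan anemia, by 0.90. Rps6, the substrate of the S6 kinases, rose by 0.80 and Rps27a, whose protein is made as a fusion to ubiquitin, by 0.84. The X-linked genes Rpl10, Rps4x, Rpl36a and Rpl39 rose by 1.06, 0.89, 1.02 and 1.08, and Rpl10, a late-joining protein of the large subunit, had the smallest standard error of these (0.16, adjusted p = 0.0022, edgeR).

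The paralogs and other symbols differed more among themselves. Of the 9, 7 were tested and 5 were called higher, namely Rps27rt (1.01), Rps27l (0.82), Rpl36al (0.80), Rpl22l1 (0.74) and Rps19bp1 (0.53), the last of which encodes a protein that binds Rps19 and is not part of the ribosome. Rpl22, the core partner of Rpl22l1, rose by 1.005. Rps27l was higher in GFP+ cells in 2 of 4 mice in plain CPM. Its call was lost with library totals alone as the scaling (0.52, adjusted p = 0.0844, edgeR), with the mouse as a block (0.76, adjusted p = 0.105, edgeR) and when any i.v. library or the i.c.v. male GFP- library was left out. Rpl7l1, a paralog of Rpl7, had a log2 fold change of 0.16 ± 0.11 (adjusted p = 0.267, edgeR), with 48.6 to 61.7 CPM in GFP+ and 56.4 to 60.6 CPM in GFP- libraries. Rpl39l was near its counting floor, at 0 to 1.92 CPM in GFP+ and 1.48 to 3.62 CPM in GFP- libraries, with a log2 fold change of -1.30 ± 0.67 (adjusted p = 0.162, edgeR). Rpl3l, known from striated muscle, stood between 0 and 0.606 CPM, and Rpl10l, known from testis, had no UMI in any library.

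Other measures moved with this difference. The CNS-associated macrophage markers fixed for this work (9 genes, all with UMIs in every treated library) summed to 2279 to 3045 CPM in GFP+ and 927 to 1784 CPM in GFP- libraries, and the 11 microglial markers to 5700 to 10820 and 11900 to 16787 CPM. The neutrophil markers (9 genes, at least 3 with UMIs in each library) summed to 112 to 2952 CPM in GFP+ and 343 to 5252 CPM in GFP- libraries and the choroid plexus or ependymal markers (8 genes) to 128 to 2364 and 311 to 1507 CPM, both overlapping. The erythroid markers stayed under 1 CPM in sum. Among cells with microglial markers alone the ribosomal protein share of the summed UMIs was 12.3% to 15.96% in GFP+ and 7.67% to 10.9% in GFP- libraries, again without overlap. The median share over these cells overlapped, at 4.98% to 12.1% in GFP+ and 3.71% to 6.82% in GFP- libraries. It was lower in GFP+ cells of the i.c.v. female. The GFP+ cells also held more UMIs, a median of 1284.5 to 4718.5 against 841.5 to 1037. Without cells of other types 82 genes were again called higher, the count found with all kept cells, where 16.6% of all genes were called. Fewer cells of a kind and less RNA per cell cannot be told apart in sums of this sort. The weight of cells rich in a nuclear RNA moved too. Cells in which the nuclear RNA Malat1 took over 5% of UMIs gave 17.5% to 22.7% of the UMIs of GFP+ libraries and 36.0% to 50.9% of those of GFP- libraries, although they were 43.4% to 59.7% and 52.6% to 81.4% of the cells.

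The difference was smaller, and far fewer genes were called, when cells were compared within such classes or given equal weight. Among cells with Malat1 under 5% the share was 16.7% ± 2.16 in GFP+ and 13.0% ± 1.55 in GFP- libraries (SD, n = 4 each), higher in 4 of 4 mice but overlapping, and 13 of 84 genes were called higher, where 2.39% of all genes were. Among cells with Malat1 over 5% it was 4.94% ± 1.19 and 4.17% ± 0.52, overlapping and higher in GFP+ cells of 3 of 4 mice. The mouse differences ran from -0.59 to 3.13 points. In this class 5 of 83 genes were called (Rps28, Rpl38, Rpl36, Rpl31 and Rps15), where 8.38% of all genes were. With every cell thinned to 500 UMIs the means were 8.54% and 6.65%, higher in GFP+ cells in 3 of 4 mice, and 2 of 83 genes (Rps28 and Rpl31) were called, where 5.8% of all genes were. When instead the library sums were drawn down to the same totals, 80 of 83 genes were called, where 10.9% of all genes were. With library totals alone as the scaling, which moves the median of all genes to -0.27, 79 of 84 genes were called higher, where 6.54% of all genes were. Rps28 was called in each of the Malat1 classes and in the thinned cells, with log2 fold changes of 0.89 (under 5%), 0.80 (over 5%) and 0.86, but not in cells with at least or with under 3000 UMIs alone (0.76 and 0.60, adjusted p = 0.0656 and 0.185, edgeR).

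The share depended on how many UMIs a cell had, and so did the sign of the difference. In cells with under 1000 UMIs it was 3.77% ± 0.86 in GFP+ and 6.53% ± 1.62 in GFP- libraries, lower in GFP+ cells of 4 of 4 mice although the groups overlapped. From 1000 UMIs to below 3000 it was 6.64% and 4.51%, and from 3000 to below 10000 it was 13.5% and 11.9%. In cells with 10000 or more UMIs it was 18.6% ± 2.33 and 15.5% ± 0.88. The groups overlapped in each of these ranges as well. From 1000 UMIs to below 3000 the mouse differences ran from 0.49 to 6.51 points, with GFP+ higher in 4 of 4 mice. The largest was that of the i.v. female, 10.6% against 4.07%. From 3000 to below 10000 the differences ran from -0.55 to 2.92 points, with 3 of 4 mice higher. At 10000 or more they ran from 0.48 to 5.74 points, with 4 of 4 mice higher. Between cells of 1 library, Spearman's rho of the share with the number of UMIs was positive in each GFP+ library (0.38 to 0.67) and negative in each GFP- library (-0.08 to -0.45). A negative rho does not mean a steady fall. In each GFP- library the share was lowest from 1000 UMIs to below 3000 and highest at 10000 or more. With the Malat1 share rho was negative in all 8 (-0.56 to -0.83). The rho values describe 2266 to 4555 cells a library and share a denominator, the UMIs of the cell. With cells of at least 3000 UMIs alone 6 genes were called higher (1.06% of all genes were) and 75 had an unadjusted p under 0.05 in the edgeR test, with a median log2 fold change of 0.44. With cells of under 3000 UMIs alone 0 were called (8.03% of all genes were) and 1 had an unadjusted p under 0.05, with a median of 0.13. The unadjusted counts of both settings are given without the share of all genes at that p.

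**Figure D3:**
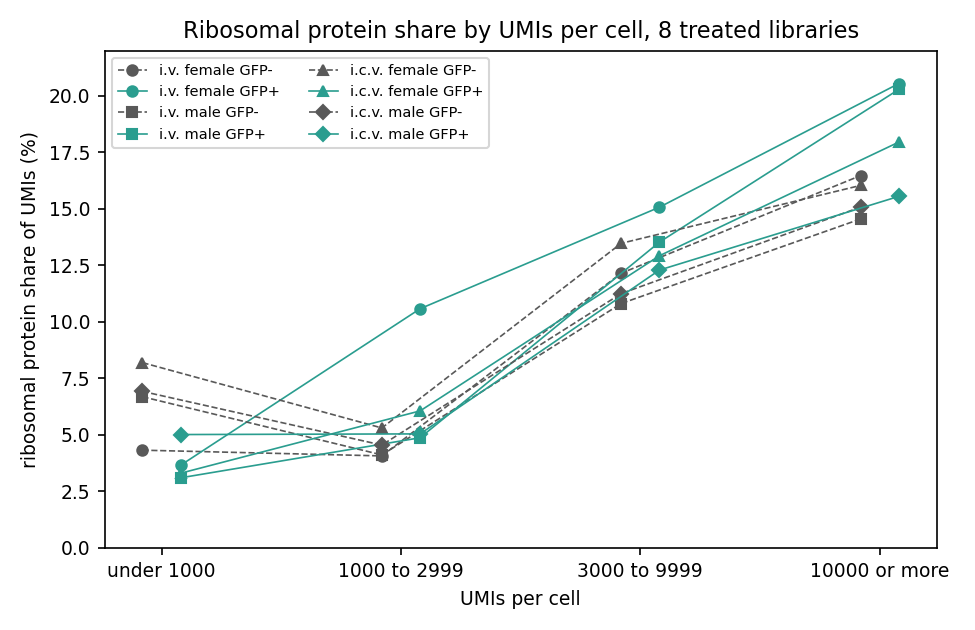
Ribosomal protein share of UMIs (y axis, percent) by the number of UMIs of a cell (x axis, 4 ranges), 1 line per treated library, GFP+ solid and GFP- dashed. Below 1000 UMIs each mouse's GFP+ point lies under its GFP- point, and at 10000 UMIs or more the i.v. GFP+ points lie highest, at 20.3% and 20.5%.

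Within the set, shorter coding sequences went with larger GFP+ to GFP- differences. Across the 72 core genes with a principal GENCODE transcript, Spearman's rho between coding length and log2 fold change was -0.69, across genes of the same 8 libraries and so given without a p. The 24 shortest (153 to 405 nt) had a median log2 fold change of 1.03, the next 24 one of 0.92 and the 24 longest (576 to 1257 nt) one of 0.83. Rplp1 stood apart, with a short coding sequence and one of the smallest changes (0.71). For transcript length rho was -0.40, for GC content of the transcript -0.12 and for the mean level -0.09 (over 77 genes). For the difference between Malat1 classes described below the rho with coding length was -0.14.

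**Figure D4:**
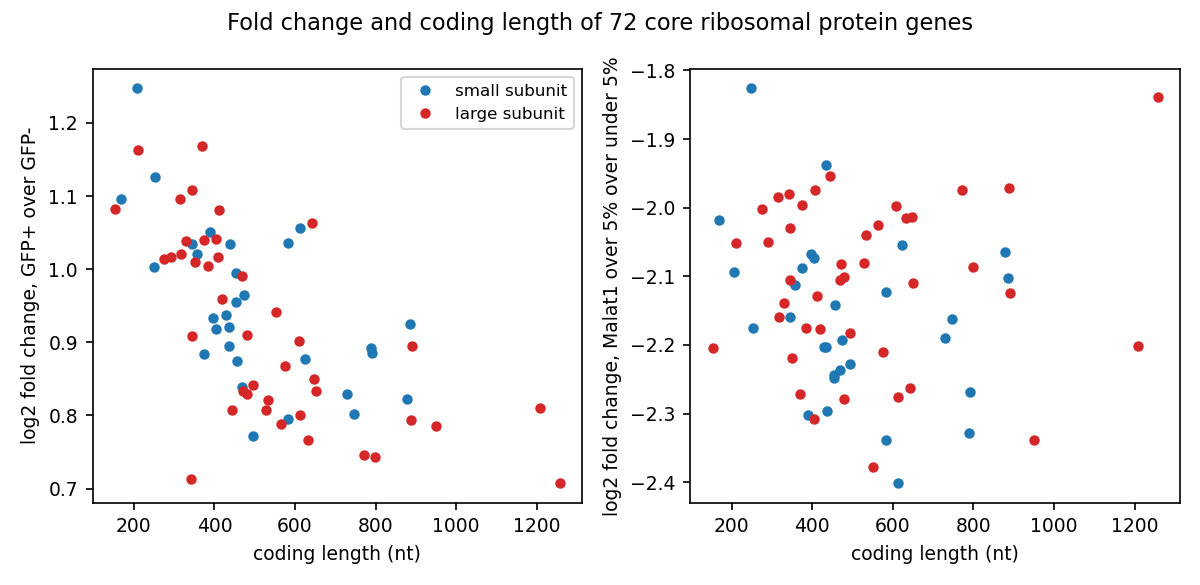
Coding length (x axis, nucleotides) against the log2 fold change of GFP+ over GFP- libraries (left) and of cells with Malat1 over 5% over those under 5% (right), 72 core genes, coloured by subunit. In the left panel the points fall from about 1.2 among the shortest genes to 0.71 at the longest, Rpl4, and in the right panel they spread between -2.4 and -1.8 at all lengths.

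Other genes of translation were read against the 16.6% of all genes called higher and the 15.9% called lower. Of the elongation and other TOP mRNA genes 16 of the 18 listed were tested, and 13 were higher and 0 lower in GFP+ libraries, with a median log2 fold change of 0.81. Fau, which encodes a ribosomal protein fused to a ubiquitin-like sequence but lies outside the naming rule, rose by 0.91, and the elongation factor Eef1a1, the scaffold Rack1 and Tpt1, all with TOP mRNAs, by 0.84, 0.89 and 0.88. Eef2 missed the threshold at 0.47 (adjusted p = 0.052, edgeR), and so did Vim, an intermediate filament gene, at 1.70 ± 0.77 (adjusted p = 0.119, edgeR), the highest value of that list. Of the 33 initiation factors 14 rose and 0 fell (median 0.28), led by the Eif3 subunits Eif3h (0.92), Eif3f (0.84) and Eif3k (0.83), and of 44 ribosome biogenesis genes 11 rose, among them Npm1 (0.65) and Nop10 (0.93), and 3 fell, Polr1a (-1.04), Nop2 (-0.97) and Gnl3 (-0.46), with a median of 0.14. Of the 20 genes of mTORC1 and translation control 1 rose, Rheb (0.43), and 3 fell, among them Rptor (-1.22), the subunit that brings substrates to mTORC1, a share lower that is near that of all genes. Larp1, which binds TOP mRNAs, had a log2 fold change of -0.13 (adjusted p = 0.375, edgeR) and lower CPM in GFP+ cells of 4 of 4 mice. The mitochondrial ribosomal protein genes, which serve the separate ribosome of mitochondria, had a median of 0.43, and 38 of 77 tested were higher and 0 lower. Their sum was 0.28% of UMIs in GFP+ and 0.248% in GFP- libraries, which overlapped.

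The sort difference was larger after i.v. than after i.c.v. dosing. In ribosomal protein share it was 7.6 and 7.96 points in the i.v. female and male and 2.51 and 2.52 points in the i.c.v. female and male. Markers of other myeloid cells differed by route in the same GFP+ libraries, and their part in the result was not tested. The 9 monocyte markers summed to 289 and 187 CPM in the i.v. female and male and to 2.38 and 3.48 CPM in the i.c.v. female and male, the 9 neutrophil markers to 1568 and 2952 against 112 and 120 CPM, and cells with at least 3 dendritic cell markers were 1.70% and 2.65% against 0.114% and 0.0283% of cells, although the 9 dendritic cell markers summed to 550 and 674 against 693 and 408 CPM, which overlapped. Siglech is on both the dendritic cell and the microglial marker list, and the dendritic cell markers summed to 666 to 826 CPM in GFP- libraries. In GFP- libraries the monocyte markers summed to 41.4 and 22.4 CPM after i.v. and 146 and 41.5 CPM after i.c.v. dosing. Without cells of other types (neutrophils, lymphocytes, erythroid cells and cells of brain tissue other than macrophages, a setting chosen for the routes after seeing the data that keeps monocytes and dendritic cells), the mean share was 16.3% in GFP+ and 8.28% in GFP- libraries after i.v. and 12.6% and 10.1% after i.c.v. dosing. The interaction of sort and route was positive for 83 of the 84 genes tested, with a median of 0.85 on the log2 scale against -0.01 over all genes. An unadjusted p under 0.05 was found for 79 of the 84, and for 2239 of all 12539 genes tested. Only 4 were called (1.82% of all genes tested were called in that direction and 1.93% in either). They were Rps28 (1.31 ± 0.26, adjusted p = 0.0498), Rps27l (1.27 ± 0.25, adjusted p = 0.049), Rpsa (1.16 ± 0.21, adjusted p = 0.0377) and Rplp0 (1.05 ± 0.19, adjusted p = 0.035), all by edgeR. With the mouse as a block, which the shared animals allow, 56 genes were called, where 4.84% of all genes were, and without a filter on low counts 50 were, where 3.16% were, and with DESeq2 68, where 4.36% were. Without cells of other types 3 of the 4 were called, where 1.37% of all genes were (Rps28 then had 1.37, adjusted p = 0.0522, edgeR). Leaving out 1 library gave 0 to 9 calls, 0 without any of the i.v. female GFP+, i.v. male GFP-, i.v. male GFP+, i.c.v. female GFP-, i.c.v. female GFP+ and i.c.v. male GFP+ libraries and 1 without the i.v. female GFP- library. Within either Malat1 class none was called in edgeR, with 24 genes (under 5%) and 10 genes (over 5%) at an unadjusted p under 0.05. The class counts are given without the share of all genes at that p.

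Rpsa, a small-subunit protein also known as the laminin receptor, stood at 2211 and 2298 CPM in the i.v. female and male GFP+ libraries against 1111 and 1031 CPM in the GFP- libraries of those mice. In the i.c.v. female and male it stood at 1527 and 1365 CPM against 1421 and 1199 CPM. Rplp0 stood at 1921 and 2073 CPM in the i.v. GFP+ libraries and 1404 and 1265 CPM in the i.c.v. ones, and at 1058 to 1320 CPM in all GFP- libraries. Both i.v. GFP+ libraries were thus the highest of the treated ones. The other 6 ran from 1031 to 1527 CPM for Rpsa and from 1058 to 1404 CPM for Rplp0. For both genes the i.v. GFP- libraries lay below the i.c.v. GFP- libraries, which adds to the interaction.

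**Figure D5:**
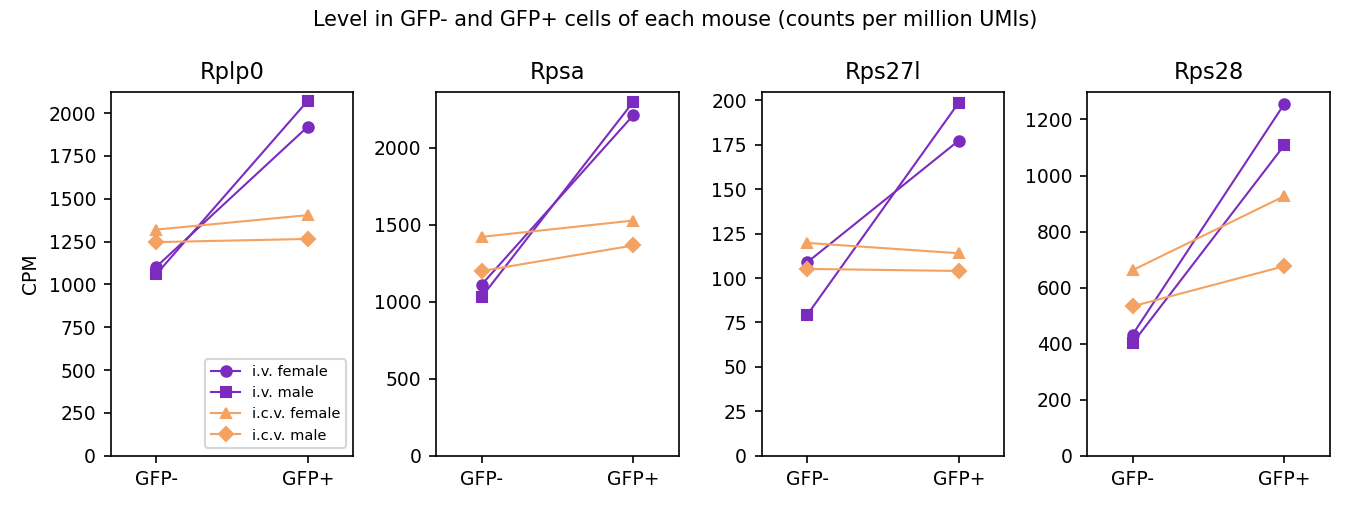
CPM (y axis, from 0) of the 4 genes whose sort difference was called as larger after i.v. dosing, in the GFP- and GFP+ library of each mouse (x axis), 1 line per mouse coloured by route. The i.v. lines rise steeply in each panel, and the i.c.v. lines are nearly flat for Rplp0 and Rps27l and rise for Rps28.

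Between routes within 1 sort, few genes passed. Each of these tests was fitted to all treated libraries, GFP+ and GFP- together, so its spread came from both sorts. Among GFP+ libraries (2 against 2), Rps27l (0.90 ± 0.18, adjusted p = 0.0394), Rpsa (0.75 ± 0.15, adjusted p = 0.04) and Rplp0 (0.69 ± 0.14, adjusted p = 0.0371) were higher after i.v. dosing by edgeR, 3 of 84 genes where 2.56% of all genes were called higher and 2.77% in either direction. The median of the set was 0.47, and 71 of its genes had an unadjusted p under 0.05, as did 2066 of all 12539 genes tested. The monocyte and neutrophil markers given above did not overlap between the same libraries. Without cells of other types, which leaves monocytes in, the same 3 genes were called (0.72 for Rplp0, 0.78 for Rpsa and 0.92 for Rps27l), where 2.61% of all genes were. These calls numbered 24 with DESeq2 (3.54% of all genes), 15 without a filter on low counts (2.87% of all genes) and 0 or 1 when any library was left out (0 without any one of the GFP+ libraries and 1 without any one of the GFP- libraries). Among GFP- libraries 0 genes of the set, and 0 of all 12539 genes, were called by edgeR, with 50 of the set at an unadjusted p under 0.05 and a median of -0.36, that is lower after i.v. dosing. Over all genes 1064 had an unadjusted p under 0.05. DESeq2 called 0 of the set as well, and 1 gene higher and 72 lower of all genes. Each route is represented by 1 female and 1 male, so the spread within a route includes sex.

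Cells of the same library also differed. In cells with Malat1 over 5% of UMIs, 83 of 83 ribosomal protein genes tested were lower than in the other cells, in 8 of 8 libraries in plain CPM, with the library as a block in edgeR. Of all genes tested 35.6% were called lower and 75% in either direction, and 15.5% were lower in CPM in all 8 libraries. The median log2 difference was -2.11, or 4.32-fold, against 0.07 over all genes. Malat1 itself, which defines the classes, stood at 88682 to 119578 CPM in the cells over 5% of the treated libraries. In the cells under 5% it stood at 20108 to 23919 CPM. Over all kept cells it took 3.42% to 4.04% of the UMIs of GFP+ and 4.92% to 7.13% of those of GFP- libraries. Rpl17, a large-subunit protein near the exit of the peptide tunnel, was among those that fell the most, by 2.38 ± 0.11 (adjusted p = 8.17e-11, edgeR). It stood at 2904, 2971, 2294 and 2086 CPM in the cells with Malat1 under 5% of the i.v. female, i.v. male, i.c.v. female and i.c.v. male GFP+ libraries, and at 932, 558, 530 and 596 CPM in the cells over 5%. In the GFP- libraries of the same mice it stood at 2330, 1701, 2138 and 1962 CPM in the former and 475, 518, 624 and 541 CPM in the latter, so that no value of one class reached the other.

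Other large falls were those of Rplp0 (-2.34), Rps7 (-2.34), Rps4x (-2.33), Rpl32 (-2.31), Rps15a (-2.30), Rps16 (-2.30), Rpl29 (-2.28) and Rpl15 (-2.28). The smallest were again outside the core, Rpl7l1 (-0.87), Rps19bp1 (-1.13), Rpl22l1 (-1.48) and Rpl36al (-1.69), and the smallest among the core genes was that of Rps21 (-1.83). The elongation and other TOP genes were lower in 16 of 16 cases (median -1.95), the mitochondrial ribosomal protein genes in 70 of 77 (median -1.19) and the initiation factors in 28 of 33 (median -0.70). Of the mTORC1 and translation control genes 11 of 20 were higher, where 39.4% of all genes were, among them Rptor (1.59) and Tsc1 (1.499), and 7 were lower, among them Eif4ebp1 (-1.50), and Larp1 was higher by 0.54. The classes also differed in depth. In GFP+ libraries cells with Malat1 under 5% had a median of 4719 to 8729 UMIs and those over 5% one of 858 to 1068, whereas in GFP- libraries the medians were 643 to 3735 and 981 to 1069. Among cells of 3000 to below 10000 UMIs the ribosomal protein share was 14.6% (under 5%) and 8.15% (over 5%) in GFP+ and 12.9% and 5.51% in GFP- libraries, and with every cell thinned to 500 UMIs 83 of 83 genes were still lower (median -1.89). No gene was called for a class difference that depended on the sort (0 of 83 in edgeR and in DESeq2, 10 and 34 at an unadjusted p under 0.05), where 1.12% of all genes were called in edgeR. Of all 11554 genes tested, 1409 in edgeR and 880 in DESeq2 had an unadjusted p under 0.05. The edgeR count of 10 is thus near the share of all genes. The interaction was positive for only 1 of the 83 genes. Its median was -0.27 on the log2 scale against 0.04 over all genes, that is a larger fall in GFP+ cells.

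Relative to each other the core genes kept nearly fixed proportions. Each gene's share of the ribosomal protein total had a coefficient of variation over the 8 treated libraries of 2.64% to 21.0% (median 6.20%), and 71 of 77 genes were under 10%. The 6 above that were Rpl35 (21.0%), Rps28 (15.9%), Rps27 (14.7%), Rpl38 (13.5%), Rplp1 (12.6%) and Rps29 (12.0%). Rplp1 was the most abundant by UMIs with 3.28% of the total, before Rps24 (2.80%), Rps29 (2.63%) and Rpl13 (2.39%), and the 10 leading genes made 23.2% of it. UMIs are counted at the 3′ end, so these levels were not divided by length. Whether transcript length or copies elsewhere in the genome affect them was not tested.

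The treatment-naive libraries spanned a wider range than the treated ones. PBMCs had the highest ribosomal protein share of all 12 libraries (19.6%) and the astrocyte sort the lowest (2.57%), with the naive microglia (11.2%) between the lowest GFP+ and the highest GFP- library and the neuron sort, of oligodendrocyte-marker cells, at 5.31%. Naive microglia held few UMIs, a median of 425.5 in cells with microglial markers against 841.5 to 1037 in the GFP- libraries. Their share differed by depth, at 8.54% under 1000 UMIs, 6.10% from 1000 to below 3000 and 17.8% from 3000 to below 10000. Of the 77 core genes 62 were highest in PBMCs, 9 in the i.v. female, 5 in the i.v. male and 1 in the i.c.v. female GFP+ library, and 77 were lowest in the astrocyte sort. Rps27 stood at 4014 CPM in PBMCs, 1619 in microglia, 560 in the neuron sort and 201 in the astrocyte sort. By markers, B cells of the PBMC library had 25.9% (112 cells), monocytes 16.8% (104 cells) and neutrophils 4.36% (27 cells). In the i.v. male GFP+ library 34 cells with dendritic cell markers had 28.0%. Cells with Malat1 over 5% were lower for 77 of 77 core genes in the microglia and the astrocyte sort (median log2 ratio of CPM + 1 of -1.80 and -1.33), 76 in the neuron sort (-0.26) and 66 in the PBMCs (-0.34), where such cells numbered 9.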

How the data were processed

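The authors made the deposited counts with Cell Ranger 3.1.0 on mm10, as whole numbers of UMIs per gene and barcode without normalization, from 3′ single-cell libraries. The genes and lists were chosen with earlier results of these data known. Here, counts of kept barcodes were summed per library (and per Malat1 class), scaled by TMM, filtered by filterByExpr and fitted with edgeR 4.0.16 (R 4.3.3), and DESeq2 1.42.0 was an alternative. GFP+ and GFP- libraries of 1 mouse share a number in the labels. Their deviations from the mean of each sort, taken over both routes, correlated between -0.33 and 0.21 over genes. Route differences remain in these deviations, so the correlations cannot show whether libraries of 1 mouse are paired. Doublets were not removed. A gene was named when called, at 20 CPM or more and moved one way in all mice or libraries, the 10 largest in each direction, beside a fixed list of genes given whatever their values. Only 1 mouse of each sex and route was sequenced, 4 mice in all. The main sort, route and interaction tests had no mouse term and took the libraries of 1 mouse as separate. Their p-values measure the spread between libraries within groups, which for the sort includes route. In the Malat1 class tests the library was a block, so those p-values measure the spread of the class difference between libraries. Gene positions and coding lengths are GENCODE's for GRCm38, start sites RefSeq's. The scripts were tested on simulated counts. Single values of some genes are not reported here.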

Additional observations from a re-analysis of the deposited data

Results flagged for a closer look

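The sort difference of 4 genes was larger after i.v. than after i.c.v. dosing by the interaction test described above. On the log2 scale the difference of differences was 1.05 for Rplp0, 1.27 for Rps27l, 1.16 for Rpsa and 1.31 for Rps28. Over the 17 alternatives tried, the adjusted p of Rplp0 ran from 0.000282 to 0.916 and it was called in 7 of them, Rpsa in 7, Rps27l in 6 and Rps28 in 5.

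In cells with Malat1 over 5%, the ribosomal protein share of the i.v. female GFP+ library (6.72%) lay far above the other GFP+ libraries (4.24% to 4.54%). Rpl3l was at 0.123 CPM in the i.c.v. female GFP- library and at 0 in the other GFP- libraries, which at this depth is a difference of very few molecules. In 84 groups of 4 libraries screened for such a stray value 2 were found, and chance alone gives about 1 in 20.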

How the results depend on the processing

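The Malat1 class result kept its direction and its count (83 or 84 genes lower) under every alternative run. The count of genes called between GFP+ and GFP- stayed between 75 and 83 under other scalings, filters and cell selections, with the mouse as a replicate block (76, and the block changed no other count by over 1.5 times except that of the interaction), and with each library left out (the 83 include 1 gene called lower, Rpl39l, without the i.c.v. female GFP+ library). It fell to 2 with cells thinned to 500 UMIs, 13 and 5 in cells with Malat1 under or over 5% alone, and 6 and 0 in cells with at least or under 3000 UMIs alone (the last pair chosen after seeing the data). Without TMM (also chosen after seeing the data) the median of all genes shifted to -0.27 for the sort and 0.49 for the Malat1 classes, and that of the set to 0.63 and -1.69.

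The share difference of 5.15 points was 4.46 to 5.99 with 1 library left out, and 1.89 both thinned and as a mean over cells. It was 0.46 as a median over cells (higher in 1 of 4 mice) and 0.77 in cells with Malat1 over 5% (3 of 4 mice). By UMIs it was 1.53 from 3000 to below 10000 (3 of 4 mice) and -2.76 under 1000. The median and the UMI ranges were chosen after seeing the data. The route calls in GFP+ (3) became 24 with DESeq2, 15 without a filter on low counts, 1 with the libraries of that sort alone, and 0 in either Malat1 class and without TMM, and 0 to 1 with 1 library left out. The interaction calls (4) became 68 with DESeq2, 50 without a filter, 56 with the replicate block, 2 with upper-quartile scaling, 3 without cells of other types (chosen after seeing the data, with 3 for the route calls), and 0 in either Malat1 class and without TMM, and 0 to 9 with 1 library left out. The Malat1 class by sort count of 0 became 0 to 1 with 1 library left out, 1 without the i.v. female GFP+ library.

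Signs of the log2 fold change turned for few named genes in the sort comparison. In cells under 3000 UMIs these were Rplp0 (-0.16), Rplp1 (-0.069), Rps27a (-0.024), Rpl36al (-0.031), Rpl7l1 (-0.015), Eef1b2 (-0.016), Eef2 (-0.26), Npm1 (-0.0054) and Larp1 (0.056). In thinned cells they were Eef2 (-0.092), Larp1 (0.043) and Rpl7l1 (-3.6e-05), with Malat1 over 5% Rplp0 (-0.051) and Eef2 (-0.19), with Malat1 under 5% Larp1 (0.010) and Rpl7l1 (-0.071), from 3000 UMIs Larp1 (0.12) and Rpl7l1 (-0.13), and without TMM Rpl7l1 (-0.12). The cause of these changes was not tested. Precision is limited by 4 mice, not by counting error.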
